A study of Mus musculus with 2 samples.

Results

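Chemokines and a growth factor that attract or sustain myeloid cells are described here across the liver cells of mice that carried mutant NRAS in part of their hepatocytes. The genes are Ccl2, Ccl7, Cxcl1, Cxcl2, Cxcl3, Cxcl5, Cxcl16 and Csf1, chosen by name, and all 8 were found among the 31053 mouse genes of the matrix. They were followed in hepatocytes by the amount of Nras RNA in the cell, and across gated cell types to find which cells held their RNA.

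The samples came from 3 female C57BL/6 mice (BL6 in the labels), injected at 6 to 8 weeks of age by hydrodynamic tail-vein injection (HDTV) with a transposon and the SB13 transposase. All 3 mice carried mVenus, a fluorescent protein, together with NRAS under the CAGGS promoter. In 2 mice the NRAS was the oncogenic G12V form, and in 1 control mouse it was G12V/D38A, a form that also has a change in the effector loop and is not oncogenic. Livers were taken on day 6, and live mVenus-positive cells of each mouse were tagged with a hashtag, a DNA-barcoded antibody, and pooled into 1 gene expression library with 1 matching hashtag library. The injection reaches only a part of the hepatocytes and leaves each with its own dose. The deposited table names hashtag 1 as the D38A mouse and hashtags 2 and 3 as the G12V mice. In the methods of the paper it is hashtag 3 that carried D38A, and hashtags 1 and 2 that carried G12V. Mice are therefore named by hashtag. Hashtag 2 was a G12V mouse in both sources.

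Chemokines are small proteins that guide white blood cells along a gradient. Cxcl1, Cxcl2, Cxcl3 and Cxcl5 bind CXCR2, the receptor that draws neutrophils out of the blood. Ccl2 and Ccl7 bind CCR2 and bring in inflammatory monocytes, and Csf1 keeps monocytes and macrophages alive through its receptor, encoded by Csf1r. Cxcl16 is made as a membrane protein that binds CXCR6 on lymphocytes and is shed by the proteases ADAM10 and ADAM17. In cells with oncogene-induced senescence such factors are part of the senescence-associated secretory phenotype, and NF-kappaB is a known activator of several of these genes.

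The genes lie in few places in the mouse genome (GRCm38). Ccl2 (ENSMUSG00000035385) spans bases 82035571 to 82037453 of the plus strand of chromosome 11, and Ccl7 (ENSMUSG00000035373) follows 8.26 kb downstream. Cxcl5, Cxcl3, Cxcl1 and Cxcl2 stand in this order on the plus strand of chromosome 5, from base 90759360 at the start of Cxcl5 to base 90905938 at the end of Cxcl2. The gap between Cxcl3 (ENSMUSG00000029379) and Cxcl1 was 101.6 kb, and that between Cxcl1 and Cxcl2 10.8 kb. Cxcl16 lies on the minus strand of chromosome 11 from base 70453983 to 70459984, and Csf1 on the minus strand of chromosome 3 from base 107741048 to 107760469. Among all pairs of the 8 genes, only Cxcl2 and Cxcl3 shared transcript stretches of the read length of 91 bases. Over all their transcripts, 85 of the 2241 distinct stretches of Cxcl2 and 85 of the 3663 of Cxcl3 were shared. How far this affects their counts was not tested.

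RefSeq promoters of this build were matched for 4 of the 8 genes (Cxcl1, Cxcl2, Cxcl3 and Csf1). The stretch from 230 to 31 bases before the start is shown for the 3 CXCR2 ligands because it holds the longest stretch of letters that the 3 had in common upstream of the start, GGGAATTTCCC, given in capitals. These 11 bases have the form of a kappaB site, to which NF-kappaB binds, and were picked from the sequences of these genes. They begin 71 bases before the start in Cxcl1 (chr5:90891015-90891214), 97 bases before it in Cxcl2 (chr5:90903669-90903868) and 73 bases before it in Cxcl3 (chr5:90785871-90786070), on the plus strand each time, with coordinates for the printed stretch.
Cxcl1: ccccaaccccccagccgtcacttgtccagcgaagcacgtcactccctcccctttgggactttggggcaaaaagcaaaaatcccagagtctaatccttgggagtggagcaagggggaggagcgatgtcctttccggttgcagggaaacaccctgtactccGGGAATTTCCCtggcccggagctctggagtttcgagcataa
Cxcl2: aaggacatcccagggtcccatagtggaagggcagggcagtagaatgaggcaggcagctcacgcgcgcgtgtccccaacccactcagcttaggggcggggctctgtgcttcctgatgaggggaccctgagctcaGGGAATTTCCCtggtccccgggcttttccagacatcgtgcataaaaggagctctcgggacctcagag
Cxcl3: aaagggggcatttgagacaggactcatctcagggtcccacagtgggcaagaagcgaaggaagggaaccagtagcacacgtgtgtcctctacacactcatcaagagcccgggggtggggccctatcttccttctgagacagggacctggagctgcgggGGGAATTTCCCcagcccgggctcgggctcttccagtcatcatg
The search covered both strands of windows from 250 bases before to 50 bases after the start. The 11 bases stood in 14 of 32851 promoters (0.0426%) and were not found in that of Csf1. The AP-1 letters TGANTCA stood in 7.81% of all promoters and in none of the 4. A match describes the letters alone, and all other values are RNA.

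The gene library held 13151 barcodes with 141975897 UMIs (unique molecular identifiers, which count each captured RNA once). Of these barcodes, 10219 passed the filters on depth and mitochondrial RNA. Hepatocytes were barcodes in which Alb, Apoa1, Apoa2, Ttr and Fgb made up at least 1% of UMIs. There were 8509 of them, and the 7986 that passed no other gate were used, with a median of 3742 UMIs. Their depth fell into 2 ranges. The 2167 deep hepatocytes, with at least 10000 UMIs, had a median of 39431 UMIs, and the other 5819 had a median of 2618. Hashtags were called for 362, 1235 and 194 of the hepatocytes for hashtags 1, 2 and 3, and 6117 had no call. Levels are UMIs per 1000000 UMIs (CPM) summed over the cells of a group, with exact 95% Poisson intervals that cover counting error only.

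Which cells held these RNAs differed from gene to gene. Hepatocytes, which held 83.3% of all UMIs kept, carried 85.2% of Cxcl1, 81.5% of Cxcl5, 80.7% of Ccl2 and 69.4% of Cxcl3 UMIs. The share was lower for Csf1 (55.9%), Ccl7 (54.1%) and Cxcl2 (48.7%). Cxcl16 stood apart, with 28.4% of its UMIs in hepatocytes and 30.5% in 260 mature dendritic cells. These shares follow from the number of cells sorted. By CPM, a class other than hepatocytes was the highest for all 8 genes.

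The neutrophil attractants had unlike sources. Cxcl2 reached 12226 CPM (10415 to 14260) in the 5 neutrophil-gated barcodes and 2965 CPM (2739 to 3205) in 34 Kupffer cells or macrophages, against 30.4 CPM in hepatocytes. The Kupffer level was 1651, 3889 and 1899 CPM in hashtags 1, 2 and 3, so it was above the hepatocyte level in every mouse, although 5 cells held 75.4% of these UMIs. Cxcl3 and Cxcl5 were laid out otherwise. The Kupffer or macrophage gate held 0 UMIs of both genes, where a count of 0 allows up to 14.03 CPM. Endothelial cells held 0.442 CPM of Cxcl3 and 0.884 CPM of Cxcl5. Hepatocytes held 29.5 CPM of Cxcl3, above the Kupffer limit, and 13.3 CPM of Cxcl5, which lies within it. The 5 neutrophil-gated barcodes held 2 UMIs of Cxcl3 and 0 of Cxcl5, too few to place them against hepatocytes.

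Cxcl1 was at 179.7 CPM (177.2 to 182.3) in hepatocytes and at 233.8 CPM (173.6 to 308.3) in Kupffer cells or macrophages, whose intervals overlap. A higher sum of 570 CPM in 16 stellate cells came from 2 barcodes, 1 of which held 48 of its 49 UMIs. Endothelial cells had 22.6 CPM of Cxcl1 and T or NK cells 3.4 CPM.

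The monocyte attractant Ccl2 had 105.4 CPM (103.5 to 107.4) in hepatocytes and 215 CPM (157.5 to 287) in Kupffer cells or macrophages, but only 6.19 CPM in 525 endothelial cells and 3.4 CPM in 72 T or NK cells. Ccl7 was mainly a Kupffer cell or macrophage RNA by level, at 65.5 CPM (35.8 to 110) from 14 UMIs, against 1.06 CPM in hepatocytes. Csf1 was highest by level in neutrophil-gated barcodes, at 302 CPM (82.2 to 773) from 4 UMIs, and next in endothelial cells, at 110.1 CPM (96.8 to 125) against 4.93 CPM in hepatocytes. The endothelial level of Csf1 was 9.04 CPM in 19 cells of hashtag 1, 177 CPM in 31 cells of hashtag 2 and 112 CPM in 445 cells of hashtag 3, so most of these 525 cells were of 1 mouse.

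Cxcl16 was highest by level in mature dendritic cells, followed by Kupffer cells or macrophages. It had 989 CPM (949 to 1030) in mature dendritic cells, 398 CPM in Kupffer cells or macrophages, 243 CPM in conventional dendritic cells and 226 CPM in endothelial cells, the last 2 with intervals that overlap. Its level in mature dendritic cells was 936 CPM in hashtag 1, 1028 CPM in hashtag 2 and 1182 CPM in 4 cells of hashtag 3, with overlapping intervals between hashtags 1 and 2. Hepatocytes had 20.4 CPM.

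Ccl2, Cxcl3 and Cxcl5 were highest in 26 cholangiocyte-gated barcodes, with 565 CPM (511 to 624), 319 CPM (279 to 364) and 54.9 CPM (38.9 to 75.4). Tspan8 was found in 23 of the 26, Sox9 in 22, Epcam and Cldn7 in 17 each, Krt19, a keratin that defines bile duct cells, in 13 and Krt7 in 6. They carried 3910 CPM of Nras, against 653 CPM in hepatocytes, and 5 barcodes held 97.4% of their Ccl2 UMIs. A further 94 barcodes passed both this gate and the hepatocyte gate and were left out. With barcodes of several gates given to their strongest gate, the order for Ccl2 turned, at 482.9 CPM (403.4 to 573.4) in 42 Kupffer cells or macrophages and 399.9 CPM (370.6 to 430.9) in 54 cholangiocyte-gated barcodes. Tspan8 and Sox9 were also present in deep hepatocytes, while Krt19 and Krt7 stood at 0.644 CPM or less there, and Epcam and Cldn7 at 1.62 CPM or less.

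**Figure D1:**
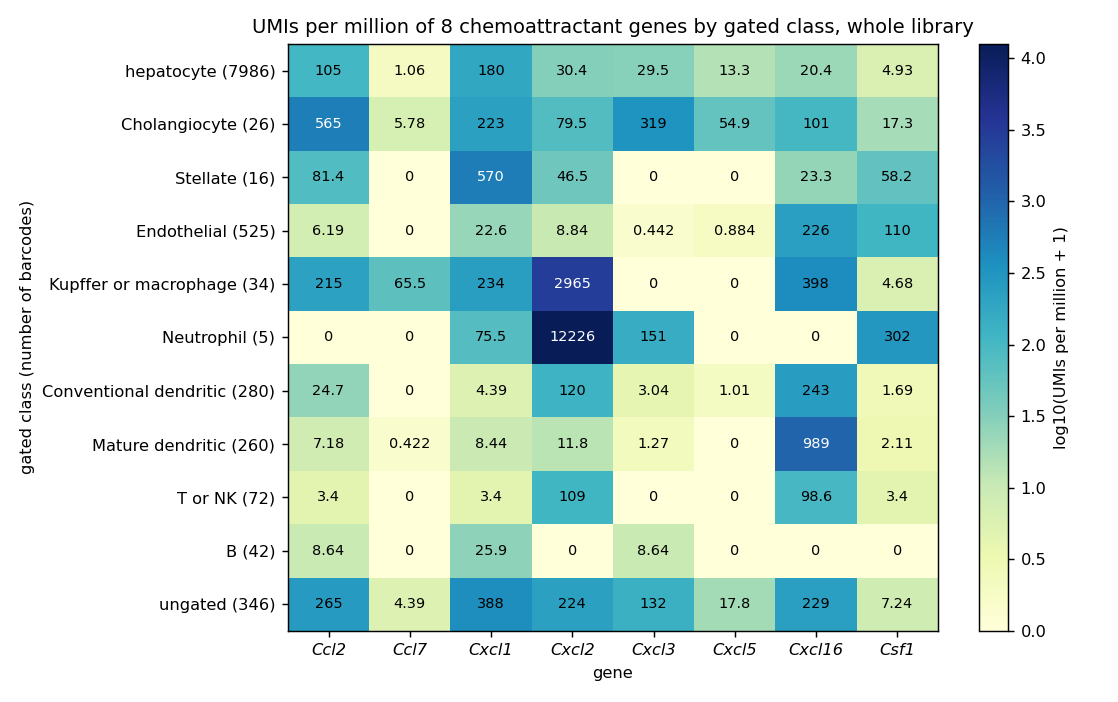
Level of each of the 8 genes (columns) in each gated class (rows, with the number of barcodes), as CPM over the class in the whole library; colour shows log10(level + 1) and the number in each cell is the level. Cxcl2 is highest in the neutrophil and Kupffer rows, Cxcl16 in mature dendritic cells, and Cxcl3 and Cxcl5 are at 0 in the Kupffer row.

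Deep hepatocytes were then sorted by their own Nras level, to which both the endogenous RNA and the construct add. Baseline cells had under 200 CPM of Nras, low cells 200 to under 1000, intermediate cells 1000 to under 3000 and high cells at least 3000. The 4 bins held 1523, 370, 157 and 117 cells. UMIs were summed per hashtag and bin, and 9 sums of at least 5 cells entered the edgeR quasi-likelihood test with the mouse as a block. Hashtag 1 gave 118, 39, 19 and 20 cells, hashtag 2 gave 724, 187, 79 and 55, and hashtag 3 gave only 9 baseline cells. All contrasts between bins therefore rest on 2 mice, 1 of which is the D38A mouse in the deposited table and a G12V mouse in the methods.

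Cxcl3 and Cxcl5 rose the most, and Cxcl2 and Cxcl16 also rose from baseline to high Nras, whereas Cxcl1, Ccl7 and Csf1 passed in no bin. Higher calls were made for 4 of the 8 genes from baseline to high Nras, where 11.7% of the 10994 genes tested were called higher and 11.8% lower (23.5% in all). At intermediate Nras 3 of the 8 were called higher, against 9.37% of all genes higher and 10% lower (19.4% in all). At low Nras 2 of the 8 were called higher, against 2.61% of all genes higher and 3.27% lower (5.88% in all). No gene of the 8 was called lower. The median log2 fold change of the 8 was 0.69, 1.43 and 1.25 in the low, intermediate and high bins, and that of all genes −0.01, −0.02 and −0.03.

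Cxcl3, a CXCR2 ligand, went with the Nras bin in both mice. In hashtag 1 its level was 5.64 CPM at baseline, 72.6 at low, 218.5 at intermediate and 105.4 at high Nras. In hashtag 2 it was 10.4, 23.6, 103.7 and 143 CPM. Every bin above baseline was higher than baseline in each mouse, beyond the Poisson intervals. The log2 fold change was 2.01 (SE 0.44, edgeR adjusted p = 0.0202) at low, 3.90 (SE 0.43, edgeR adjusted p = 7.41e-05) at intermediate and 3.73 (SE 0.43, edgeR adjusted p = 7.14e-05) at high Nras. At low Nras the call was lost in 3 of 13 alternatives, with a log2 fold change of 0.23 (edgeR adjusted p = 1) when cells were binned by mVenus in place of Nras. Hepatocytes with no hashtag call, which did not enter this fit, had 6.09, 38.1, 91.3 and 243 CPM.

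Cxcl5, which attracts neutrophils through the same receptor, rose in every bin of the fit. Hashtag 1 had 4.70, 33.5, 32.5 and 4.79 CPM from baseline to high, and hashtag 2 had 5.20, 18.2, 33.99 and 45.9 CPM. The high bin of hashtag 1 held 5 UMIs in 20 cells and was level with its baseline, so the rise at high Nras came from hashtag 2. The log2 fold changes were 2.18 (SE 0.47, edgeR adjusted p = 0.0185), 2.72 (SE 0.48, edgeR adjusted p = 0.00181) and 2.65 (SE 0.49, edgeR adjusted p = 0.0022). Taken alone, with no test, hashtag 1 gave 0.06 at high Nras and hashtag 2 gave 3.07. With mVenus bins the low-bin value was 0.77 (edgeR adjusted p = 0.994), and the call at low Nras was lost in 4 of 13 alternatives. Cells with no call had 15.1, 11.7, 28.4 and 118.4 CPM, so their low bin was not above baseline.

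Cxcl2, the neutrophil attractant found at a high level in Kupffer cells, was called at high Nras only. Its levels were 15.8, 7.01, 74.7 and 27.8 CPM in hashtag 1, while hashtag 2 had 21.2, 27.1, 27.3 and 70.0 CPM. The highest bin was thus the intermediate bin in one mouse and the high bin in the other. The log2 fold change at high Nras was 1.48 (SE 0.47, edgeR adjusted p = 0.0414), and it was 0.83 in hashtag 1 and 1.67 in hashtag 2 alone. This call was lost in 4 of 13 alternatives. The adjusted p was 0.239 with DESeq2, and by edgeR 0.15 with other gates allowed, 0.074 without the replicate block and 0.0524 without the baseline sum of hashtag 3. At intermediate Nras it was 1.16 (edgeR adjusted p = 0.13), with hashtag 1 alone at 2.23 and hashtag 2 alone at 0.33, and 4 of 13 alternatives called it.

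Cxcl1, the most abundant of the 8 in hepatocytes, showed no common direction. Hashtag 1 had 142.0, 183.6, 372.9 and 119.8 CPM, and hashtag 2 had 171.0, 160.0, 128.9 and 204.2 CPM. The log2 fold change was 0.10, 0.57 and 0.09 in the low, intermediate and high bins, with edgeR adjusted p of 0.979, 0.35 and 0.918. The 95% interval of the high-bin value ran from −0.71 to 0.90, so a change of up to about that size was not detectable with these 2 mice.

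Among the monocyte factors, Ccl2 was called at intermediate Nras. In hashtag 1 it had 87.2, 167.6, 508.5 and 114.0 CPM, and in hashtag 2 57.4, 139.9, 116.3 and 149.4 CPM. All 3 bins were above baseline in both mice, but the high bin of hashtag 1 only within the Poisson intervals. The log2 fold change was 1.13 (edgeR adjusted p = 0.135) at low, 1.92 (SE 0.40, edgeR adjusted p = 0.00555) at intermediate and 1.01 (edgeR adjusted p = 0.0974) at high Nras. At intermediate Nras hashtag 1 alone gave 2.56 and hashtag 2 alone 0.98. Cells with no call had 125.2, 199.5, 457.5 and 400.02 CPM.

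Ccl7, its neighbour on chromosome 11, was close to the limit of counting. The 4 bins of hashtag 1 held 2, 7, 3 and 8 UMIs, and those of hashtag 2 held 9, 0, 5 and 2. Its log2 fold change at high Nras was 2.35 with an SE of 1.13 and an edgeR adjusted p of 0.172. Cells without a hashtag call held 30, 7, 6 and 28 UMIs, or 1.58, 1.49, 2.66 and 17.2 CPM. The 28 in the high bin came from 3 of 38 cells.

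Csf1, the growth factor of macrophages, stayed low in hepatocytes. It had 3.76, 5.50, 4.87 and 5.75 CPM in hashtag 1, while hashtag 2 had 5.16, 5.81, 5.31 and 7.30 CPM, with overlapping intervals in each mouse. The log2 fold change at high Nras was 0.50 (95% interval −0.18 to 1.19, edgeR adjusted p = 0.293). In cells with no call the high bin stood at 26.4 CPM, of which 5 cells held 95.3%.

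Cxcl16 was called at high Nras, with a log2 fold change of 0.93 (SE 0.29, edgeR adjusted p = 0.0381). Hashtag 2 had 15.4, 21.5, 31.2 and 39.3 CPM, higher at every step, while hashtag 1 had 26.6, 52.5, 31.7 and 27.8 CPM and was highest at low Nras. Alone, hashtag 1 gave 0.10 and hashtag 2 gave 1.29 at high Nras. The call was lost in 5 of 13 alternatives. The adjusted p was 0.305 with DESeq2, and by edgeR 0.196 in cells of 20000 to 80000 UMIs, 0.0914 with hepatocyte genes at 5% or more, 0.134 without the replicate block and 0.226, at a log2 fold change of 0.57, with other gates allowed. Cells with no call had 20.3, 32.8, 38.1 and 39.3 CPM. Adam10 and Adam17, which encode the proteases that shed its protein, had log2 fold changes of −0.02 and −0.12 (edgeR adjusted p = 0.968 and 0.844).

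**Figure D2:**
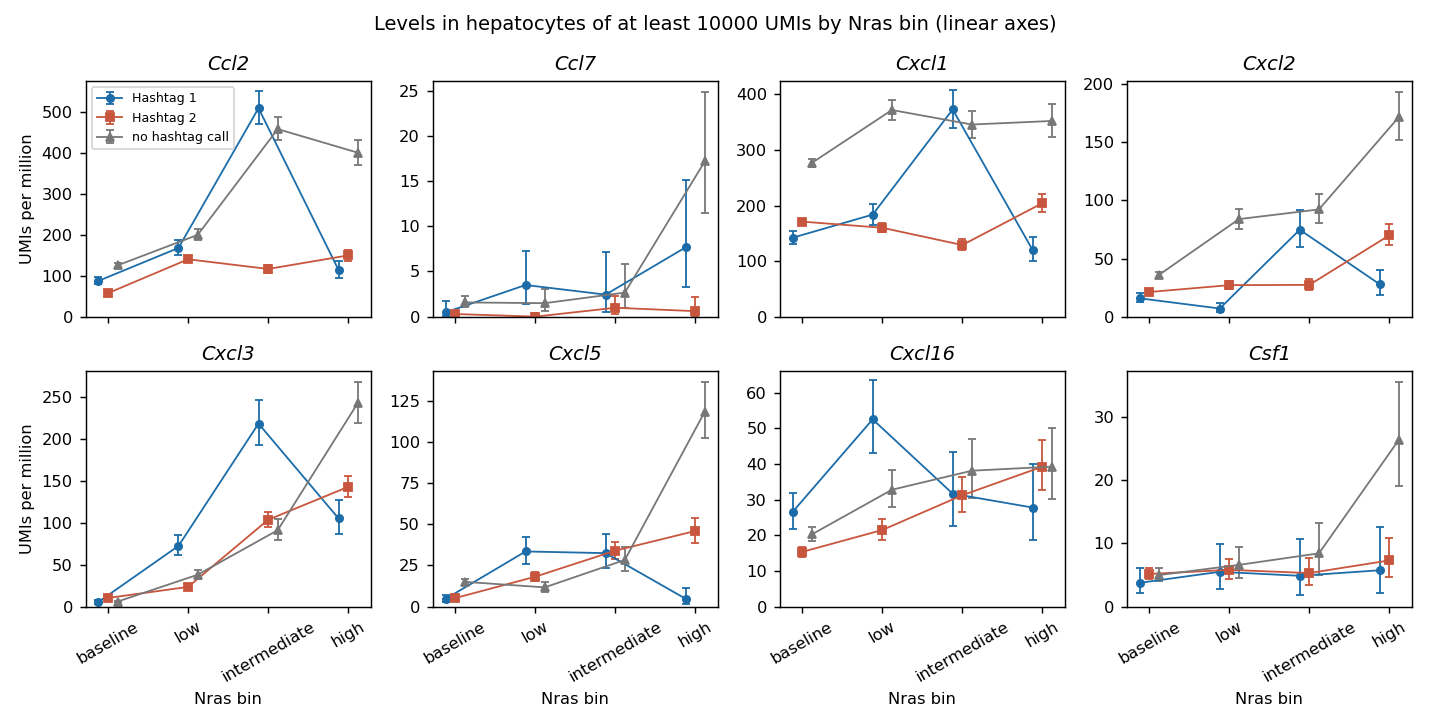
Level of each gene (CPM, linear axes that differ between panels) in deep hepatocytes by Nras bin, for hashtag 1, hashtag 2 and cells with no hashtag call; bars are exact 95% Poisson intervals. Cxcl3 lies above its baseline in every bin of all 3 series, and Cxcl5 of hashtag 1 returns to baseline in the high bin.

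**Figure D3:**
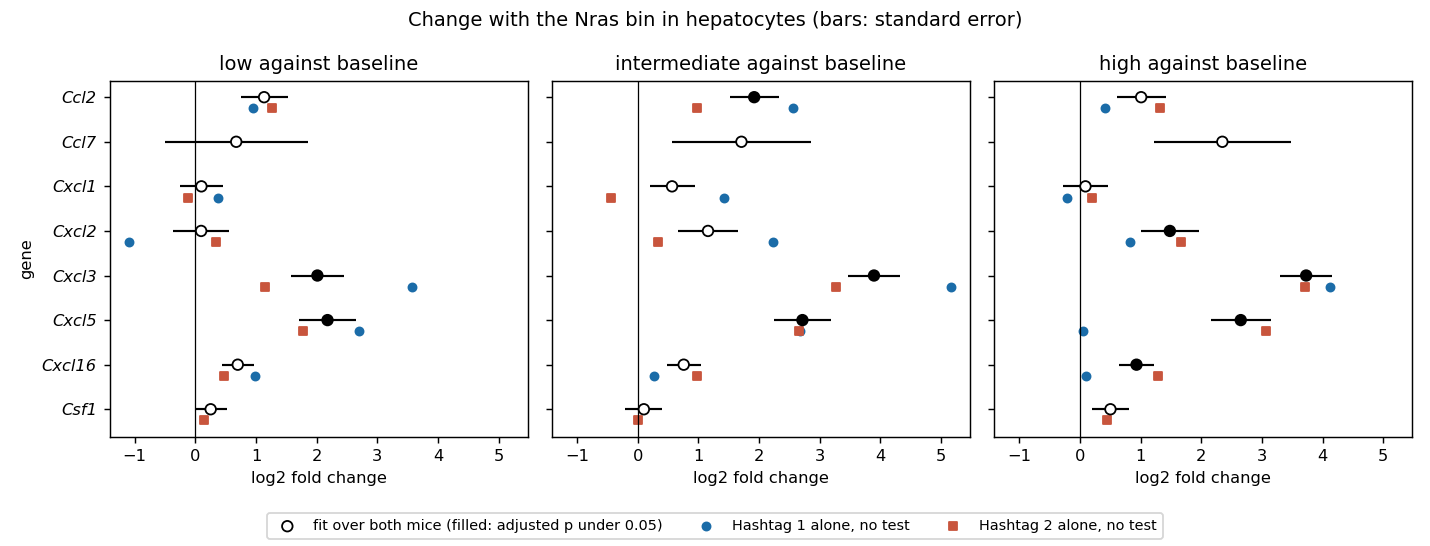
Log2 fold change of each gene against the baseline bin, with the standard error of the edgeR fit as bars (filled: adjusted p under 0.05), beside the value of hashtag 1 and hashtag 2 alone where the fit allowed one. At high Nras the values of Cxcl3 nearly coincide in both mice, at 4.13 and 3.72, while those of Cxcl5 are 0.06 and 3.07.

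None of the 8 genes was called between intermediate and high Nras. Between these bins 0 of the 8 passed by edgeR, and 1 of all genes did (0.0091%), with 617 at an unadjusted p under 0.05, of which 1 was a member (Ccl2), and 10 called by DESeq2. The log2 fold changes ran from −0.91 (Ccl2, 95% interval −1.82 to −0.000544) to 0.64 (Ccl7, −1.94 to 3.21). With no filter on low counts Ccl2 was called at −0.91 (edgeR adjusted p = 1.34e-07). This is the fold change of the main fit, where the edgeR adjusted p was 0.89. The setting used the same sums and also took Cxcl3 at high Nras to an edgeR adjusted p of 7.4e-115. Its p-values are therefore not read as firmer evidence. In cells of 20000 to 80000 UMIs Cxcl2 was called at 2.37 (edgeR adjusted p = 0.0453). For Cxcl3 the interval was −1.015 to 0.68 and for Cxcl5 −1.09 to 0.96.

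The bins also differed in other ways, and the part of these in the results above was not tested. The share of the 5 hepatocyte genes fell with Nras, with medians of 8.09%, 6.16%, 3.78% and 3.51%, and the median depth was 35950, 46288.5, 59144 and 51470 UMIs. Markers of Kupffer cells or macrophages and of neutrophils made up at most 0.00245% of UMIs in any bin of hashtags 1 and 2, where barcodes that passed those gates had been left out. In hashtag 1 the conventional dendritic list made up 0.00339%, 0.00355%, 0.000244% and 0.00115% from baseline to high. The mature dendritic list made up 0.00515%, 0.00721%, 0.00179% and 0.00604%. In hashtag 2 these were 0.000442%, 0.000145%, 0.000727% and 0.000639%, and 0.00519%, 0.00346%, 0.00485% and 0.00575%. Over the whole library the T or NK list went from 0.000211% to 0.00055%. There the mature list was mostly Socs2, at 41.6 and 42.3 CPM at baseline and high Nras. The cholangiocyte list went from 0.048% to 0.125% of UMIs over the whole library, nearly all of it Tspan8, at 399, 668, 979 and 1103 CPM, and Sox9, at 81.8, 104, 123 and 147 CPM. Krt19 and Krt7 had 0 UMIs in the high bin, which allows up to 0.485 CPM each. Epcam, another bile duct marker, stood at 0.483 CPM at baseline and 1.62 CPM, from 10 UMIs, at high Nras. The endothelial list went from 0.00598% at baseline to 0.012% at high Nras, and in hashtag 2 from 0.00497% to 0.014%, with Bmp2 at 2.43 and 15.8 CPM and Fabp4 at 39.96 and 86.3 CPM over the whole library. Dnase1l3, Ptprb and Cdh5 of this list were also higher at high Nras than at baseline. Its other genes were lower, with Stab2 at 0.554 and 0 CPM, Clec4g at 2.07 and 0.485, Kdr at 0.697 and 0.162, Pecam1 at 0.518 and 0.323 and Egfl7 at 5.20 and 4.85. The monocyte list went from 0.00176% to 0.00346%, mostly Plac8, at 16.9 and 33.8 CPM. The plasmacytoid dendritic list stood at 0.108% at baseline and 0.211% at high Nras, from Ly6d and Bst2, while its defining gene Siglech had 1 UMI at baseline and 0 in the other bins.

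More cells with a detected UMI, and not only a few strong cells, went with the change in Cxcl3. To compare bins of unlike depth, each deep hepatocyte was thinned to 10000 UMIs. Cxcl3 was then found in 3.50% of baseline cells, 11.2% of low, 23.2% of intermediate and 24.8% of high cells of the whole library. Unthinned, the shares were 7.94%, 20.8%, 38.2% and 42.7%. In hashtag 1 the thinned shares were 3.36%, 18.25%, 24.3% and 23.4%, and in hashtag 2 they were 3.72%, 10.5%, 24.7% and 28.9%. As a background at the same depth, 86 mature dendritic cells with at least 10000 UMIs were thinned alike, and 0.358% of them held a Cxcl3 UMI, while the median depth of all 260 was 9096 UMIs and that of the deep hepatocytes 39431 before thinning.

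Ccl2 went the same way by this measure, although its sums moved less evenly. Thinned shares were 12.99%, 22.7%, 45.9% and 33.7% in hashtag 1 and 11.5%, 19.2%, 25.3% and 26.8% in hashtag 2. Before thinning, 22.1%, 33.5%, 47.8% and 52.1% of cells of the whole library held a UMI. In the mature dendritic cells the thinned share of Ccl2 was 1.78%. Cxcl1 was found in 39.5% of baseline and 44.8% of high cells of hashtag 2 after thinning, and in 28.8% and 44.4% in hashtag 1. Its unthinned shares in the whole library were 55.0% and 67.5%, and the thinned share in mature dendritic cells was 3.92%. The thinned share of Cxcl2 in hashtag 2 was 7.10%, 7.67%, 7.44% and 17.2%, against 4.31% in mature dendritic cells.

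**Figure D4:**
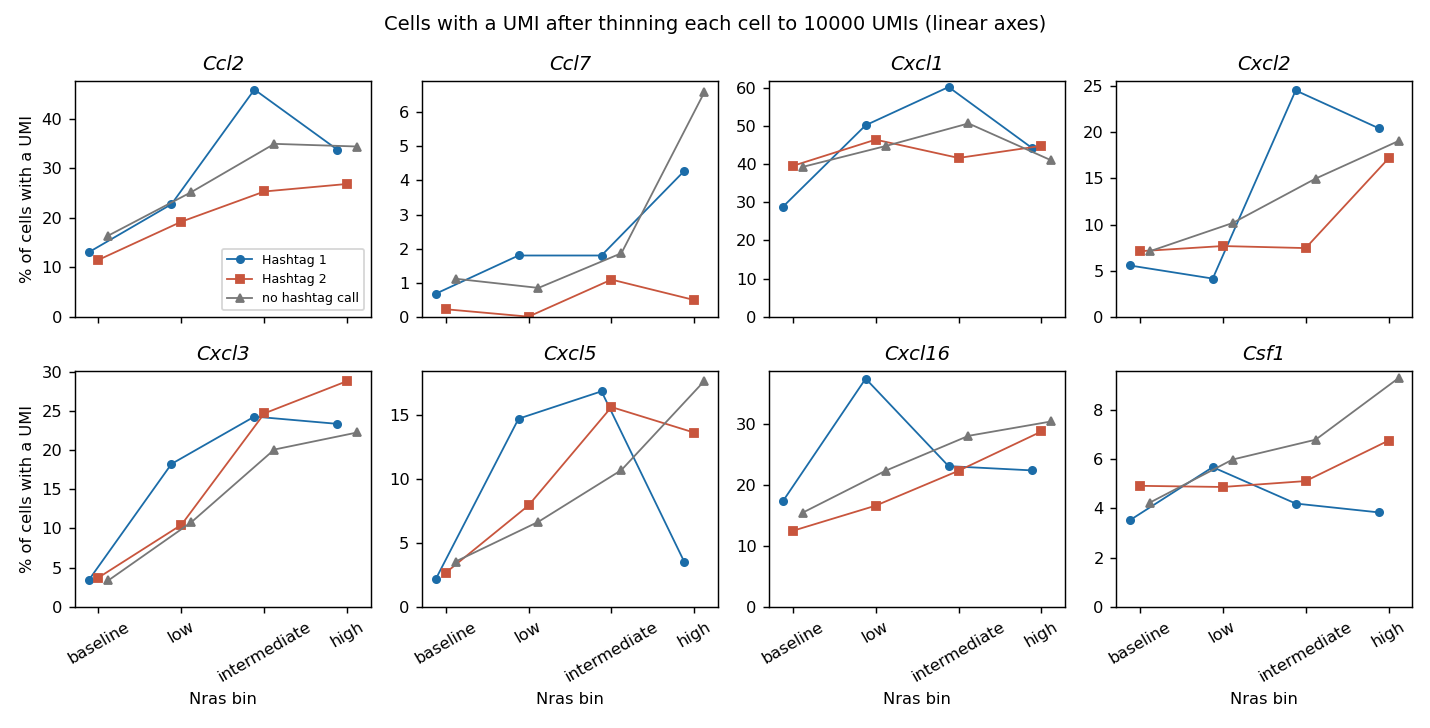
Percent of deep hepatocytes with at least 1 UMI of each gene after thinning every cell to 10000 UMIs, by Nras bin, for hashtag 1, hashtag 2 and cells with no hashtag call; points are shares over cells, with no test. Cxcl3 and Ccl2 start at 3.36 to 3.72% and 11.5 to 16.4% at baseline and are higher in all other bins of the 3 series.

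Within each bin of the whole library Cxcl2, Cxcl3 and Cxcl5 were found in a minority of cells. Cxcl1 was more widespread, with medians of 23.2, 50.7, 51.9 and 40.3 CPM from baseline to high. Cxcl16 had medians of 16.9 and 22.6 CPM at intermediate and high Nras. In the median baseline cell Ccl2, Cxcl2, Cxcl3 and Cxcl5 had no UMI, while the highest single cell had 11260 CPM of Ccl2 and 11820 CPM of Cxcl2. In the high bin the median cell had 12.5 CPM of Ccl2 and 40.3 CPM of Cxcl1, and still no UMI of Cxcl3. In the intermediate bin of hashtag 1, 5 of 19 cells held 95.2% of Ccl2 and 98.5% of Cxcl3 UMIs, 1 of them 245 of the 626 Ccl2 UMIs. In the high bin of hashtag 2, 5 of 55 cells held 72.7% and 74.0%. The Poisson intervals do not cover this spread between cells.

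The strongest cells of one gene held much of some others. The 22 deep hepatocytes with the highest Cxcl3 level, 1.38% of all UMIs, held 52.6% of Cxcl3 and 28.2% of Cxcl5 UMIs, but 8.10% of Ccl2 and 2.83% of Cxcl1. Conversely, the 22 with the highest Cxcl5 level held 31.1% of Cxcl3. The 22 strongest cells for Ccl2 held 40.2% of Ccl2, 32.7% of Ccl7 and 20.2% of Cxcl2, and those for Cxcl1 held 15.8% of Cxcl1 and 0.79% of Cxcl5. These cells were picked by the values themselves and are given as a description. Their Nras also differed, since 14 of the 22 for Cxcl3 were in the intermediate or high bin, against 2 of the 22 for Cxcl1.

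**Figure D5:**
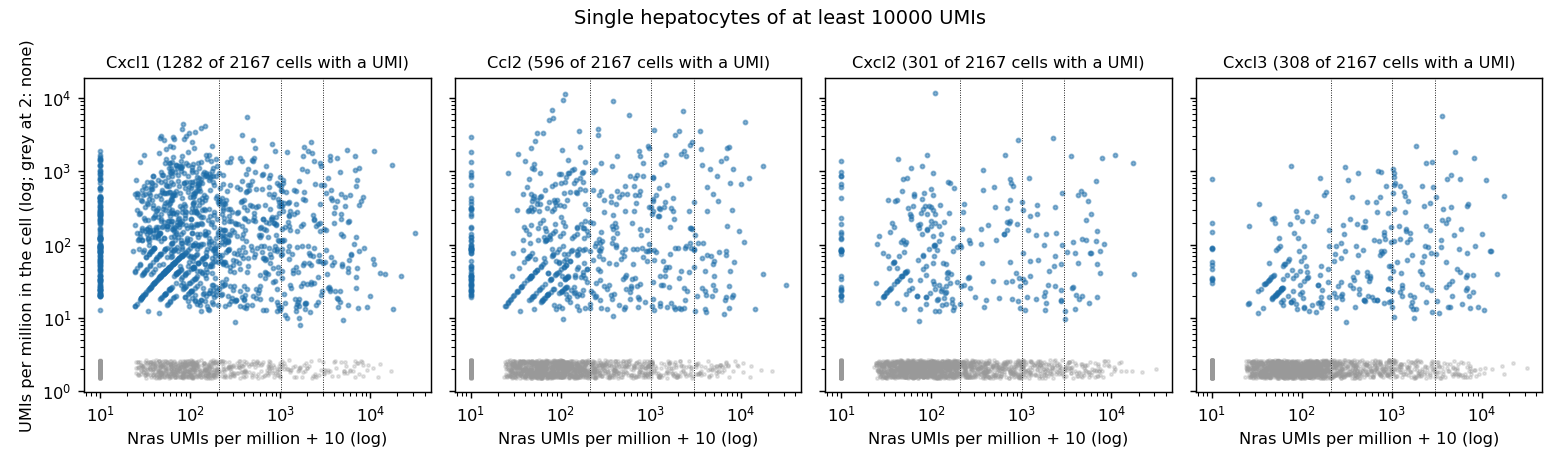
Each point is 1 of the 2167 deep hepatocytes, with its Nras level plus 10 (CPM, log axis) against its level of Cxcl1, Ccl2, Cxcl2 or Cxcl3 (log axis); grey points have no UMI and dotted lines are the bin limits. Cxcl1 is found in 59.2% of cells, at all Nras levels, and Cxcl3 in 14.2%, which lie more to the right.

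Over all hepatocytes of a mouse, hashtags 1 and 2 differed for some members. The level of Ccl2 in hashtags 1, 2 and 3 was 158.4, 84.7 and 16.8 CPM. Cxcl3 had 60.0, 31.1 and 6.31 CPM, and Cxcl1 171.4, 164.7 and 44.1 CPM. Hashtag 3 was the lowest for all 8 genes, with 0 UMIs of Ccl7 and Cxcl5, which allows up to 3.15 CPM of each, but its 194 hepatocytes had a median of 2545 UMIs, against 12046.5 and 41391. Hepatocytes under 10000 UMIs had lower levels throughout, with 29.3 CPM of Cxcl1 and 24.9 CPM of Ccl2 against 212 and 122.8 CPM in deep cells, so over all hepatocytes depth and mouse cannot be told apart for hashtag 3. Its 9 deep baseline cells had a median of 26418 UMIs, against 31869.5 and 41710.5 in hashtags 1 and 2. They had 43.8 CPM of Cxcl1 (21.9 to 78.4), against 142.0 and 171.0 CPM. Ccl2 had 0 UMIs in them, against 87.2 and 57.4 CPM, and Cxcl16 15.9 CPM, against 26.6 and 15.4. This difference was not tested. The constructs were not compared by a test, since 1 mouse carried D38A and the sources differ on which.

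Other chemokines did not share one direction. Of 14 of the 25 that could be tested, 2 were called higher and 3 lower at high Nras, 3 and 3 at intermediate and 0 and 2 at low Nras. Of all genes tested, 11.7% were called higher and 11.8% lower at high Nras, 9.37% and 10% at intermediate and 2.61% and 3.27% at low Nras. Cxcl12, which holds blood cells in place through CXCR4, fell by 2.47 on the log2 scale (SE 0.24, edgeR adjusted p = 1.94e-05), from 33.2 to 9.58 CPM in hashtag 1. In hashtag 2 the baseline level was 43.7 CPM and the high level 6.69 CPM. Ccl9 and Ccl27a, singled out after their values were seen, fell by 1.13 and fell by 0.83 (edgeR adjusted p = 0.00315 and 0.00627). Ccl20, a ligand of CCR6, rose by 1.64 (edgeR adjusted p = 0.00345), and Cxcl9, a ligand of CXCR3 on T cells, had a log2 fold change of 1.504 (edgeR adjusted p = 0.00746). Ccl17, a dendritic cell chemokine, fell by 3.25 at intermediate (edgeR adjusted p = 0.0371) and fell by 4.01 at low Nras (edgeR adjusted p = 0.0249). It had 71 UMIs at baseline and 3 at low Nras in hashtag 1, and 61 and 0 UMIs in hashtag 2, so the size of the low-bin change depends on the prior count. Ccl5 rose by 2.03 (edgeR adjusted p = 0.0488) at intermediate Nras, with 4.22 and 34.97 CPM in hashtag 2, while hashtag 1 had 17.6 and 14.6 CPM.

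The receptors of these factors were hardly measured in hepatocytes. Of 10 receptor and protease genes 3 passed the count filter, namely Adam10, Adam17 and Ccr2, and none was called in any contrast by edgeR, with unadjusted p from 0.205 to 0.904. Of 9 further cytokines that act on myeloid cells 4 could be tested. Lif, a cytokine of the interleukin 6 family, rose by 2.02 at high Nras (SE 0.58, edgeR adjusted p = 0.0258), with 1.18 and 10.5 CPM in hashtag 1, while hashtag 2 had 1.79 and 5.78 CPM. Il33 rose by 1.19 at low Nras (edgeR adjusted p = 0.0256).

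All 15 genes of the NF-kappaB pathway list were tested. At high Nras 1 was called higher and 1 lower, against 11.7% and 11.8% of all genes tested. The log2 fold change was positive for 10 of the 15, and its median over the list was 0.32. Nfkb2, a subunit of the non-canonical arm, rose by 1.37 (SE 0.24, edgeR adjusted p = 0.00138), with 8.23 CPM at baseline and 24.9 CPM at high Nras in hashtag 1, and 10.1 and 24.6 CPM in the other mouse. Icam1, an adhesion molecule for leukocytes, fell by 0.79 (edgeR adjusted p = 0.0106). At intermediate Nras the inhibitors Nfkbie and Nfkbia rose by 1.24 and 0.55 (edgeR adjusted p = 0.0155 and 0.0281), and Nfkb2 rose by 1.24 (edgeR adjusted p = 0.00225).

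Of 15 immediate early genes, the fast targets of MAP kinase signalling, 14 were tested, with 3 called higher and 2 lower at high Nras. In that contrast 11.7% of all genes tested were called higher and 11.8% lower. Fosl1, an AP-1 subunit, rose by 3.73 (SE 0.29, edgeR adjusted p = 4.94e-06), where hashtag 1 had 1.18 and 34.5 CPM, and hashtag 2 had 2.96 and 32.6 CPM. Ier3, a stress-response gene, rose by 1.89 (edgeR adjusted p = 2.19e-06) and Fosl2 by 0.97 (edgeR adjusted p = 0.0101). The lower calls were the AP-1 genes Jun and Fos, also named after their values were seen, which fell by 0.56 and fell by 0.51 (edgeR adjusted p = 0.00776 and 0.0247). Both Fosl1 and Ier3 also rose at low Nras, by 2.05 and 0.76 (edgeR adjusted p = 0.00203 and 0.00472). Myc rose by 0.74 at intermediate Nras (edgeR adjusted p = 0.0228). The lists stand beside the 8 genes as a description, with no test of one against the other.

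The genes whose pattern was most like a member were found over 15 sums, of hepatocyte bins and gated classes per hashtag with at least 20 cells, among 11141 genes. The Pearson correlation of log2(CPM + 1) was 0.97 between Cxcl3 and Sema3e, 0.97 with Gm30692 and 0.97 with Nrk. Cxcl5 was closest to Cxcl17 (0.97), Mlph (0.95) and Slc4a11 (0.94). Ccl2 was closest to Plpp2 (0.99), Neat1 and 1700017B05Rik (both 0.97), and Cxcl1 to Onecut2, Mrap and Osgin1 (0.98 to 0.99). Cxcl16 was closest to Ccdc88a, Ncoa7 and Dok1 (0.95 to 0.97), Csf1 to Myo10, Myo1d and Ppm1f (0.95), and Cxcl2 to 1810032O08Rik, Tpd52 and Irak2 (0.88 to 0.94). The sums span hepatocytes and other classes, share 1 library and 3 mice, and no p is given.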

How the data were processed

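Cells of 3 mice were tagged, sorted for mVenus, pooled and run as 1 10x Genomics 3′ gene library with 1 hashtag library. The authors deposited UMI counts per gene and barcode, made with Cell Ranger on mm10 (the sources disagree on its version), and hashtag UMI counts per barcode made with CITE-seq-Count. The values are raw counts, not normalized. Reads of the construct fall in the Nras row. The Nras, mVenus and hashtag rows were left out of all totals.

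The 8 genes, the gene lists and the Nras bins were chosen with earlier results of these data known. Kept were 10219 of 13151 barcodes, those in which 500 or more genes and 1000 or more UMIs were found and mitochondrial RNA stayed below 20%. A cell type gate asked for at least 3 detected markers and at least 0.1% of UMIs, limits set after seeing the data, and barcodes that passed several gates (616) or none (346) were set aside. Hashtags were called with HTODemux (Seurat 5.3.0, quantile 0.99), giving 1324, 2796 and 1262 barcodes, 253 doublets and 7504 without a call. Hashtag doublets stayed out of the sums per mouse but not out of the whole library, and doublets within a mouse or without a call were not removed otherwise.

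UMI sums per hashtag and Nras bin, of at least 5 deep hepatocytes (10000 UMIs or more), were tested with edgeR 4.0.16 (TMM, filterByExpr, quasi-likelihood test, hashtag as block, 3 residual degrees of freedom), adjusted by Benjamini-Hochberg over 10994 genes, at 0.05. The script was tested on simulated data for the high against baseline contrast. There 56% of log2 changes of 1 and 41.3% of −1 were recovered, and 86% of 2 and 60% of −2. Of 131 calls 11 were false, so a missing call does not show that a gene was unchanged. SEs are the log2 fold change over the root of F. Values of 1 mouse alone are differences of log2 CPM with a prior count of 1, without a test. P-values measure the spread between sums of these mice. DESeq2 1.42.0, other scaling, filters, gates, bins, depths and hashtag calls were tried. Of each other list, the 3 genes with the largest change among those called were named per contrast, and Adam10, Adam17 and Ccr2 and the markers beside the bins were named beyond this rule, after their values were seen. Likeness used genes at 10 CPM or more in a sum and members with at least 100 UMIs. A count of 0 allows up to 3 counts.

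Each mouse had its own hashtag, so the block pairs the bins of 1 animal as far as the hashtag calls are right. The calls depended on the rule. By HTODemux 118 and 724 deep baseline hepatocytes were of hashtags 1 and 2, and by the fixed hashtag rule 337 and 246. In the high bin these were 20 and 55 cells, and 36 and 26 by the fixed rule. That rule asked for at least 10 hashtag UMIs, at least 80% of them of 1 hashtag. Levels per mouse are printed for the HTODemux calls only.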

Additional observations from a re-analysis of the deposited data

Results flagged for a closer look

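Both mice went opposite ways, beyond their Poisson intervals, in 2 of the comparisons between a bin and its baseline. Cxcl1 at intermediate Nras stood at 372.9 CPM against 142.0 CPM at baseline in hashtag 1, but at 128.9 CPM against 171.0 CPM in hashtag 2. Cxcl2 at low Nras stood at 7.01 CPM against 15.8 CPM in hashtag 1, and at 27.1 CPM against 21.2 CPM in hashtag 2. The difference between the mice was not tested, and each mouse has 1 sum per bin.

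The 346 barcodes that passed no gate were used in no comparison. Their levels were above those of hepatocytes beyond the Poisson intervals for 7 of the 8 genes, with 264.5 CPM of Ccl2, 4.39 CPM of Ccl7, 388.4 CPM of Cxcl1, 223.7 CPM of Cxcl2, 132.2 CPM of Cxcl3, 17.8 CPM of Cxcl5 and 228.5 CPM of Cxcl16. Their Nras level was 1585 CPM and their mVenus level 123.3 CPM, against 653 and 54.6 CPM in hepatocytes. Their hepatocyte genes lie under 1% of UMIs by the gate.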

How the results depend on the processing

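The contrasts rest on 2 mice and on sums of as few as 19 cells above baseline. For Cxcl2, Cxcl3 and Cxcl5 they also rest on RNA found in a minority of the cells of each bin of the whole library. Cxcl3 was called in all 13 alternatives that gave a test at intermediate and at high Nras, with log2 fold changes of 2.77 to 4.34 and 3.06 to 4.59. Cxcl5 was called in 13 of 13 and 12 of 13, Cxcl2 and Cxcl16 at high Nras in 9 and 8 of 13, Ccl2 at intermediate Nras in 9 of 13, and Cxcl3 and Cxcl5 at low Nras in 10 and 9 of 13. Without the replicate block, the edgeR adjusted p was 0.074 for Cxcl2 and 0.134 for Cxcl16 at high Nras and 0.0536 for Cxcl5 at low Nras. The cause of the lost calls was not tested. The alternatives reuse the same mice and are not independent of each other. They include a fit with uncalled barcodes of these mice as a further block. They also include a fit without hashtag 3, whose only sum, at baseline, gives no difference between bins within that mouse. Leaving it out still moved the edgeR adjusted p of Cxcl2 at high Nras from 0.0414 to 0.0524. With no filter on low counts, p-values fell far below the main fit for Ccl2, Cxcl2, Cxcl3, Cxcl5 and Cxcl16 at high Nras.

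Without hashtag 1 or 2 no residual degree of freedom was left, so these gave values without a test, printed beside the results, and Csf1 gave none for hashtag 1 and Ccl7 none for either. The number of genes called at high Nras was 2579, and 1400 with DESeq2 and 873 with hepatocyte genes at 5% or more. At intermediate Nras it was 2130, and 1044, 356 and, with bins of mVenus, 1065. At low Nras it was 646, and 320 with DESeq2, 11 with mVenus bins, 77 at 5%, 1031 with no filter on low counts, 270 without the replicate block and 1307 with uncalled barcodes as a further block, an alternative chosen after seeing the data. Between high and intermediate Nras it was 1, and 10 with DESeq2, 202 with mVenus bins, 19 in cells of 20000 to 80000 UMIs, 14 with a fixed hashtag rule, 179 with no filter, 9 with the further block, and 0 at 5000 UMIs, with other gates allowed, without the block and without hashtag 3. All 8 genes had a higher level in high than in baseline cells of the whole library beyond the Poisson intervals, and 4 of 8 at 5%. These intervals cover counting error only, not the spread between cells or mice, and the main fit called Cxcl1, Ccl7 and Csf1 in no bin.

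Among the alternatives with a test, signs turned for these values, none of which had been called. With mVenus bins these were Cxcl1 at high (−0.0125), Ccl2 (−0.0462) and Cxcl2 (−0.0060) at low Nras and, from intermediate to high, Ccl2 (0.49), Cxcl3 (0.86) and Cxcl5 (0.62). With the fixed hashtag rule they were Ccl2 at low Nras (−0.0602) and, from intermediate to high, Cxcl3 (0.52) and Cxcl5 (0.45). At 5% they were Cxcl2 (−0.45), Cxcl3 (0.0891) and Cxcl16 (−0.13), and with the further block Cxcl3 (0.36) and Cxcl5 (0.75), all from intermediate to high. In cells of 20000 to 80000 UMIs they were Cxcl2 at intermediate Nras (−0.71) and Cxcl16 from intermediate to high (−0.0114). With other gates allowed they were Ccl7 (−0.62) and Cxcl2 (−0.15) at low Nras, where DESeq2 gave −0.20 for Cxcl2.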
